A study of Mus musculus with 16 samples.

Results

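The comparison described here was Ercc1-/- against WT primary mouse embryonic fibroblasts (MEFs) in late culture, at passage 7 (P7), across all mouse miRNAs on the array. Its members were chosen by the sample labels alone: 8 of the 16 arrays of the series, 4 from Ercc1-/- MEFs and 4 from WT MEFs, each genotype with 2 arrays from cells kept in 20% O2 and 2 from cells kept in 3% O2. The labels give the strain as FVB/n C57Bl/6 for every array, and the study describes the WT cells as congenic and from a littermate of the Ercc1-/- embryo. Its methods speak of 2 independent cell lines. The labels do not say which array came from which line, so p-values measure the spread between these arrays and may hold little of the spread between embryos. Cells were harvested at about the same confluence, and total RNA was hybridized to Agilent one-colour arrays. The other 8 arrays, of the same genotypes and oxygen levels at passage 3 (P3), served only to ask whether a difference at P7 was also present in early culture. The arrays measure miRNAs, so the Ercc1 transcript was not measured and the genotype rests on the labels.

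ERCC1 is the partner of the nuclease XPF, and the pair cuts DNA in nucleotide excision repair and in the repair of interstrand crosslinks. Cells without ERCC1 are sensitive to ultraviolet light and to crosslinking agents, and mouse cells in culture take oxidative damage from the oxygen of room air. A miRNA is a short RNA that guides Argonaute proteins to mRNAs, mainly by pairing of its seed, bases 2 to 8 from the 5′ end, so miRNAs that share a seed share most predicted targets. A miRNA name ending in an asterisk marks the arm of a hairpin that was held to be the minor one.

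The sequences below are those on which the results turn. Capitals mark the seed. They were taken from RefSeq (build GRCm38.p6), in which 160 of the 184 miRNAs tested had a mature sequence, 46 under exactly the name used on the array and the others under the present name of the same arm. Both arms of the miR-129 hairpin are shown because they were the miRNAs higher in Ercc1-/- MEFs.
miR-129-5p: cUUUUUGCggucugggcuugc
miR-129-3p: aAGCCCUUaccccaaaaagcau
The 3p sequence lies at chr2:94241376-94241397 on the minus strand, in Mir129-2. The 5p sequence is encoded at 2 loci, chr2:94241419-94241439 on the minus strand in Mir129-2 and chr6:29022624-29022644 on the plus strand in Mir129-1, which the arrays cannot tell apart.

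The next set shares the seed AGCAGCA of the miR-15/16 family, which is known for holding back cyclins and other drivers of the G1 phase. It is shown because miR-497, the miRNA that was lower in Ercc1-/- MEFs, belongs to it.
miR-497: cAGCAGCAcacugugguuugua
miR-195: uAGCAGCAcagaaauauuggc
miR-15a: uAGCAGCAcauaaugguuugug
miR-15b: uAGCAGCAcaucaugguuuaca
miR-16: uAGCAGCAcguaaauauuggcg
miR-322: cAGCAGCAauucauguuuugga
MiR-497 at chr11:70234730-70234751 and miR-195 at chr11:70235062-70235082 lie on the plus strand with 310 bases between them.

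The let-7 family, with the seed GAGGUAG, is known for rising with differentiation and for repressing Lin28, Hmga2 and Ras genes. The member with the largest genotype difference, let-7f, is shown with let-7a and let-7d, which lie beside it on chromosome 13, and with let-7b, which had the smallest. They differ only outside the seed.
let-7f: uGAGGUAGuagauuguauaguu
let-7a: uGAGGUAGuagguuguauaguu
let-7d: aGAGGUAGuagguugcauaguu
let-7b: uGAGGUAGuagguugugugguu
The last set holds miR-335-5p at chr6:30741314-30741336 and miR-28* at chr16:24827908-24827929, both on the plus strand and described below with their values, and 3 miRNAs with the shared seed AGUGCAA that did not differ in the same direction.
miR-335-5p: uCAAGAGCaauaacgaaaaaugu
miR-28*: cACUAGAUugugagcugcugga
miR-721: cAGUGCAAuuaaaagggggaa
miR-301a: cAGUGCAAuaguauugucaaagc
miR-130a: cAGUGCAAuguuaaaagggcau

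Signals are given as log2 of the processed signal after scaling every array to the same mean over the 57 mouse miRNAs above background on all 16 arrays, with a floor at log2 1.50. Of 611 mouse miRNAs, 286 were above background on at least 1 P7 array and 85 on all 8. The 184 that were above background on at least 4 of the 8, whatever the genotype, were tested with limma, with oxygen level and slide as blocks, and p was adjusted over the 184 by the Benjamini-Hochberg method. Replicate 1 of every group lay on slide 1 and replicate 2 on slide 2, so each Ercc1-/- array has a WT partner of the same oxygen level on the same slide, giving 4 pairs. Values are listed in the order 20% O2 on slide 1, 20% O2 on slide 2, 3% O2 on slide 1 and 3% O2 on slide 2.

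The arrays differed in brightness. Before scaling, the mean log2 signal over the 57 miRNAs was 9.16, 5.80, 7.91 and 7.06 on the Ercc1-/- arrays, against 9.29, 7.08, 8.94 and 7.99 on the WT arrays, dimmer in Ercc1-/- in 4 of 4 pairs. The number of mouse miRNAs above background was 245, 117, 155 and 175 in Ercc1-/- and 241, 128, 216 and 178 in WT. Replicates correlated across the tested miRNAs with Pearson r of 0.371 for Ercc1-/- MEFs in 20% O2 and 0.770 in 3% O2, against 0.694 and 0.910 for WT MEFs. WT arrays sat in columns 1 and 2 of both slides and Ercc1-/- arrays in columns 3 and 4, so genotype and place on the slide cannot be told apart. Whether brightness had a part in the differences was tested only by the fit with brightness as a covariate that is named beside the results below. In bulk RNA, fewer cells that express a miRNA and less of it per cell cannot be told apart.

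Between Ercc1-/- and WT MEFs at P7, 3 miRNAs passed the test (1.63% of those tested). Both arms of miR-129, a hairpin best known from brain, were higher in Ercc1-/- MEFs (1.09%), and miR-497, of the miR-15/16 family, was lower (0.543%). At an unadjusted p under 0.05 there were 38 (20.7%), 22 of them higher (12%) and 16 lower (8.7%). Among all tested miRNAs 93 were higher (50.5%) and 91 lower (49.5%), with a median difference of 0.03. Without the dimmest array, Ercc1-/- in 20% O2 replicate 2, the same 3 miRNAs and miR-195 passed, with differences of 3.25 for miR-129-5p, 3.55 for miR-129-3p, -2.01 for miR-497 and -1.84 for miR-195. The 4 Ercc1-/- and 4 WT arrays did not overlap for 3 miRNAs (1.63%), which were miR-129-5p, miR-28* and miR-17*. For miR-129-5p and miR-28* this count used WT arrays set at the floor.

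MiR-129-5p had log2 signals of 4.17, 6.45, 4.38 and 5.57 in Ercc1-/- MEFs, against 1.50, the floor, on each of the 4 WT arrays. All 4 Ercc1-/- arrays and 0 of 4 WT arrays gave a signal above background, and every Ercc1-/- array lay above every WT array. It thus passed the filter for testing through the Ercc1-/- arrays alone. Its signals on these ran in the inverse order of brightness before scaling, from 4.17 on the brightest array to 6.45 on the dimmest. This order was not tested beyond the fit with brightness as a covariate given below. The means were 5.14 ± 1.07 in Ercc1-/- and 1.50 ± 0.00 in WT MEFs (SD, n = 4 each), a difference of 3.65 (SE 0.48, adjusted p = 0.000496 by limma), and the difference was 2.78 on slide 1 and 4.51 on slide 2. The SD of 0.00 comes from the floor, so the WT arrays show none of their own spread in this test. Since no WT array gave a signal above background, the change is a bound: with each WT array set at its lowest signal above background, the signal of miR-129-5p was higher by at least 8.01-fold in Ercc1-/- MEFs. This bound holds only for the signal and scaling used in the main fit. It passed in 29 of 35 alternative settings, including every one that left out 1 array, and missed the threshold without the slide as a block (adjusted p = 0.0632 by limma), without scaling, with normexp background, from the total signals, with a floor 4 times as high and without the filter on dim miRNAs. In these settings the difference stayed at 3.65 without the block and without the filter, but it was 2.51 without scaling, 2.05 from the total signals, 1.65 with the higher floor and 0.68 with normexp background. Here and below, the normexp setting also added 50 to every spot, which by itself shrinks log2 differences of dim miRNAs. How much of the change came from this constant was not tested.

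The other arm, miR-129-3p, had log2 signals of 6.06, 1.80, 5.39 and 4.70 in Ercc1-/- MEFs, against 1.50, 1.53, 2.37 and 1.50 in WT MEFs. A signal above background was seen on 3 of 4 Ercc1-/- and 1 of 4 WT arrays. The groups overlapped only through the Ercc1-/- array in 20% O2 on slide 2, the dimmest of the 8 before scaling, which lay below the highest WT array. The difference was 2.76 (SE 0.61, adjusted p = 0.0295 by limma). Slide 1 gave 3.79 and slide 2 gave 1.74. It rested on the settings more than its partner: it passed in 19 of 35, and missed the threshold without any 1 of 4 arrays, with an adjusted p by limma of 0.0790 without WT in 20% O2 replicate 1, 0.0675 without WT in 3% O2 replicate 1, 0.188 without Ercc1-/- in 3% O2 replicate 1 and 0.237 without WT in 3% O2 replicate 2. The size depended on the signal used, at 1.41 with a floor 4 times as high, 0.84 with normexp background and -0.12 from the total signals (adjusted p = 0.942 by limma), where the direction turned.

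MiR-497 had log2 signals of 3.31, 1.55, 4.35 and 5.16 in Ercc1-/- MEFs, against 4.80, 4.63, 7.16 and 7.22 in WT MEFs. It was above background on 3 of 4 Ercc1-/- and 4 of 4 WT arrays. The 1.55, in 20% O2 on slide 2, was not above background, on an array whose lowest such signal was a scaled 14.2 before log2. The difference of that pair, -3.08, thus holds a signal that was not measured above background. Each Ercc1-/- array was below its WT partner, while the 2 genotypes overlapped across oxygen levels, since the WT signals in 20% O2 were lower than the Ercc1-/- signal in 3% O2 on slide 2. The means were 3.59 ± 1.56 in Ercc1-/- and 5.96 ± 1.43 in WT MEFs (SD, n = 4 each), a difference of -2.36 (SE 0.48, adjusted p = 0.0200 by limma). The difference was alike on the slides (-2.16 on slide 1 and -2.57 on slide 2) and between oxygen levels (-2.29 in 20% O2 and -2.44 in 3% O2). It passed in 19 of 35 settings. The call was lost without any 1 of 4 arrays, with an adjusted p by limma of 0.0693 without WT in 20% O2 replicate 1, 0.188 without Ercc1-/- in 3% O2 replicate 1, 0.0518 without WT in 20% O2 replicate 2 and 0.198 without WT in 3% O2 replicate 2. With array brightness as a covariate the difference was -1.65 (adjusted p = 0.112 by limma). The difference was -0.36 with normexp background (adjusted p = 0.334 by limma) and -1.83 with a floor 4 times as high. From the total signals it was -2.86 (SE 2.19). Each missed the threshold. The call was also lost, with differences of -2.52 to -2.36, without the slide as a block, scaling or the filter on dim miRNAs. It was lost in 20% O2 alone and with the mean over all miRNAs. A floor 0.1 times as high or the detection call of the software lost it too.

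**Figure D1:**
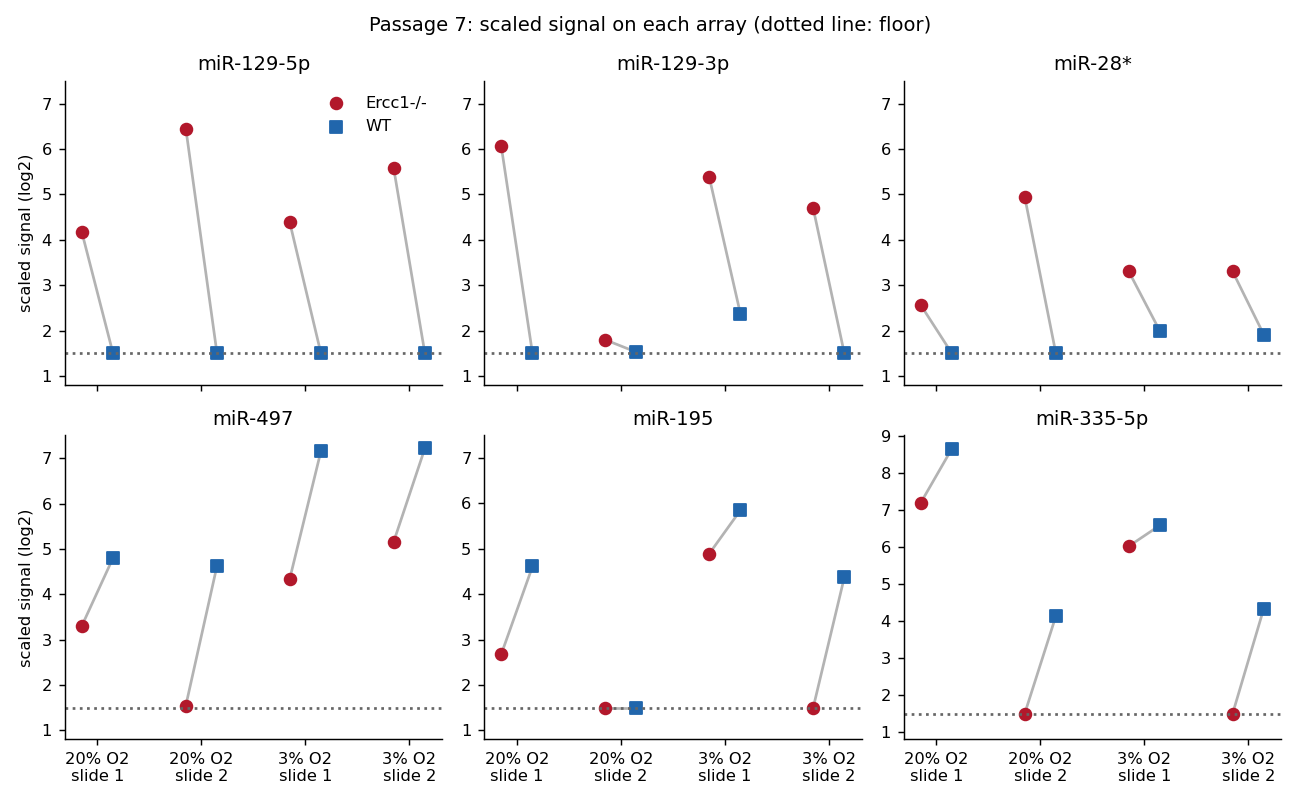
Scaled log2 signals at P7 of miR-129-5p, miR-129-3p, miR-28*, miR-497, miR-195 and miR-335-5p, with Ercc1-/- arrays (red circles) left of their WT partners (blue squares) in each pair of the same oxygen level and slide, and the floor of 1.50 as a dotted line. For miR-129-5p the Ercc1-/- arrays lie between 4.17 and 6.45 and the WT arrays at the floor, and for miR-497 the Ercc1-/- array is the lower in 4 of 4 pairs.

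The miR-15/16 family was read through its 6 members that share the seed AGCAGCA, all of which were tested. The 6 had negative differences, with a median of -1.15 beside 0.03 over all tested, of which 49.5% were lower. Of the 6, 3 had an unadjusted p under 0.05, beside 8.7% lower at that p over all tested. Only miR-497 passed the adjusted threshold. MiR-195, encoded beside miR-497, had log2 signals of 2.68, 1.50, 4.89 and 1.50 in Ercc1-/- MEFs, against 4.61, 1.50, 5.85 and 4.37 in WT MEFs. It was above background on 2 Ercc1-/- and 3 WT arrays and was lower in 3 of 4 pairs, the remaining pair being at the floor on both arrays. Its difference was -1.44 (SE 0.50, adjusted p = 0.113 by limma). MiR-15b differed by -1.35 (SE 0.60, adjusted p = 0.221 by limma), miR-15a by -0.96 and miR-16 by -0.79, and the difference of miR-322 was smaller than its SE. The family's median was -0.50 on slide 1 and -1.54 on slide 2. It came to -0.07, with 4 of 6 lower, when the background was modelled from the median spot signal instead (normexp), with 50 added to every spot. Without Ercc1-/- in 20% O2 replicate 2 it was -0.70, and without WT in 3% O2 replicate 2 it was -0.76, with 5 of 6 lower.

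The let-7 family had 9 members on the array. Of these, 8 were above background on 8 of 8 arrays and were tested, and miR-98 was above background on 1 Ercc1-/- and 2 WT arrays and was not. All 8 tested had negative differences, with a median of -1.10, beside 49.5% lower over all tested miRNAs. Of the 8, 5 had an unadjusted p under 0.05, beside 8.7% lower at that p over all tested, but none passed after adjustment. The 8 have much of their sequence in common and share the same arrays, so they are not independent. The member with the largest difference, let-7f, had log2 signals of 8.75, 5.99, 7.42 and 5.05 in Ercc1-/- MEFs, against 10.3, 6.87, 8.18 and 7.57 in WT MEFs. It was lower in 4 of 4 pairs, by a mean of 1.42 (SE 0.50, adjusted p = 0.113 by limma), although arrays of the 2 genotypes overlapped across slides. Let-7e differed by -1.18 and let-7d by -1.11 (adjusted p = 0.183 and 0.206 by limma), and let-7g and let-7a by -1.10 and -1.09. The remaining members lay closer to 0, with -0.57 for let-7c, -0.53 for let-7i and -0.21 for let-7b. The median was -0.74 on slide 1 and -1.34 on slide 2. It kept its sign in every setting tried, between -1.94 and -0.44, with 8 of 8 lower except with the total signals of the scanner software and after base composition was taken out within each array, with 7 of 8 lower in each. Without WT in 3% O2 replicate 2 it was -0.67.

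Other miRNAs with a shared seed were also read as groups. MiR-26b, from an intron of Ctdsp1, differed by -1.83 (SE 0.58, adjusted p = 0.0947 by limma) and was above background on only 1 Ercc1-/- array and 3 WT arrays, while miR-26a, which has the same seed and was above background throughout, differed by -0.51. MiR-103 and miR-107, which are known from work on insulin sensitivity, differed by -1.02 and -1.62, lower in 4 of 4 pairs each. MiR-148a differed by -1.59 and miR-152, of the same seed, by less than its SE. The 4 tested members with the seed AGUGCAA did not differ in the same direction: miR-721 differed by 1.52, miR-301a by -0.96 and miR-130a by -0.76, and the difference of miR-130b was smaller than its SE. These values are descriptions, and of the miRNAs in this paragraph none passed the adjusted threshold.

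MiR-335-5p, from an intron of the imprinted gene Mest, had log2 signals of 7.20, 1.50, 6.02 and 1.50 in Ercc1-/- MEFs, against 8.67, 4.14, 6.59 and 4.34 in WT MEFs. It was lower in 4 of 4 pairs, and the 2 Ercc1-/- arrays on slide 2 were at the floor. The difference was -1.88 (SE 0.53, adjusted p = 0.0935 by limma). Slide 1 gave -1.02 and slide 2 gave -2.74. MiR-28*, from an intron of Lpp, had log2 signals of 2.56, 4.95, 3.31 and 3.30 in Ercc1-/- MEFs, against 1.50, 1.50, 1.99 and 1.91 in WT MEFs. It was above background on 4 Ercc1-/- and 2 WT arrays. Every Ercc1-/- array was above every WT array, with a difference of 1.81 (SE 0.51, adjusted p = 0.0935 by limma). The WT array in 20% O2 on slide 2 was set at the floor, a scaled 2.82, while its lowest signal above background was a scaled 9.06. A WT signal just under that limit would overlap the Ercc1-/- arrays, so the lack of overlap rests on the floor. The opposite arm of the same hairpin, miR-28, differed by -0.57, with 2 of 4 pairs in each direction. MiR-17*, the minor arm of miR-17 in the miR-17-92 cluster, which was chosen after its values were seen, had 3.62, 4.51, 3.84 and 4.72 in Ercc1-/- MEFs, against 2.64, 3.29, 3.38 and 3.25 in WT MEFs. Its arrays did not overlap either, and it differed by 1.03 (adjusted p = 0.194 by limma).

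The remaining miRNAs among the 16 with the smallest p had adjusted p-values of 0.0810 to 0.0998 by limma. Those described next, from miR-714 to miR-290-5p, were higher in Ercc1-/- MEFs in 4 of 4 pairs. MiR-714 differed by 2.00, miR-680 by 1.75, miR-1896 by 1.69, miR-1897-5p by 1.64 and miR-877, spliced out of Abcf1 as a short intron, by 1.59. MiR-483, from an intron of Igf2, differed by 1.72, and miR-290-5p, of a cluster known from embryonic stem cells, by 1.50. MiR-199a-3p, abundant in fibroblasts, is encoded at 2 loci that the arrays cannot tell apart, 1 of them with miR-214 on a transcript opposite Dnm3. It had log2 signals of 10.5, 7.40, 8.68 and 6.30 in Ercc1-/- MEFs, against 12.2, 8.67, 9.62 and 8.65 in WT MEFs. It was lower in 4 of 4 pairs, and the difference was -1.57 (SE 0.48). MiR-99a, which represses mTOR, differed by -1.41 (SE 0.47). Across the tested miRNAs, 42 were higher in 4 of 4 pairs (22.8%) and 29 lower in 4 of 4 (15.8%).

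**Figure D2:**
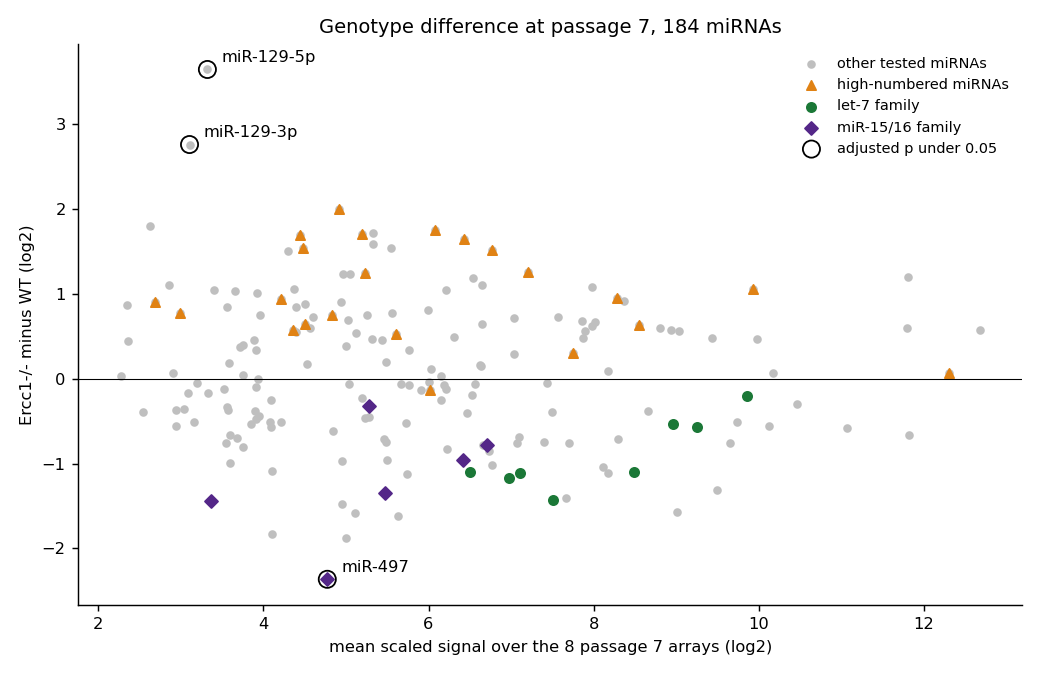
The genotype difference at P7 (Ercc1-/- minus WT, log2) against the mean log2 signal of the 8 arrays for the 184 miRNAs tested, with the high-numbered discovery sets, let-7 and miR-15/16 members coloured and the 3 miRNAs that passed the test ringed. MiR-129-5p at 3.65 and miR-129-3p at 2.76 lie above all others, miR-497 at -2.36 lies below all others, and the 8 let-7 members lie below 0.

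The high-numbered miRNAs, a list of those that entered the database from later cloning and sequencing sets, stood mostly on the side of Ercc1-/-. Of 77 listed, 35 were above background on at least 1 P7 array and 22 were tested. Of the 22, 21 were higher, 9 of them at an unadjusted p under 0.05, beside 50.5% and 12% over all tested. The median difference was 0.95, but none passed after adjustment. MiR-714, with the largest difference of the list, had 3.43, 8.82, 4.50 and 6.93 in Ercc1-/- MEFs, against 1.50, 6.26, 2.35 and 5.56 in WT MEFs. Each Ercc1-/- array was above its WT partner, yet the arrays on slide 2 were the highest of both genotypes, so the slides differed by more than the genotypes. Its difference was 2.04 on slide 1 and 1.96 on slide 2, unlike the list as a whole. The median of the list was 0.23 on slide 1, with 14 of 22 higher, and 1.88 on slide 2, with 22 of 22 higher. Without scaling it was 0.18, with 14 of 22 higher. It was 0.58 without Ercc1-/- in 20% O2 replicate 2, 0.63 without WT in 3% O2 replicate 2 and 1.43 without WT in 3% O2 replicate 1.

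**Figure D3:**
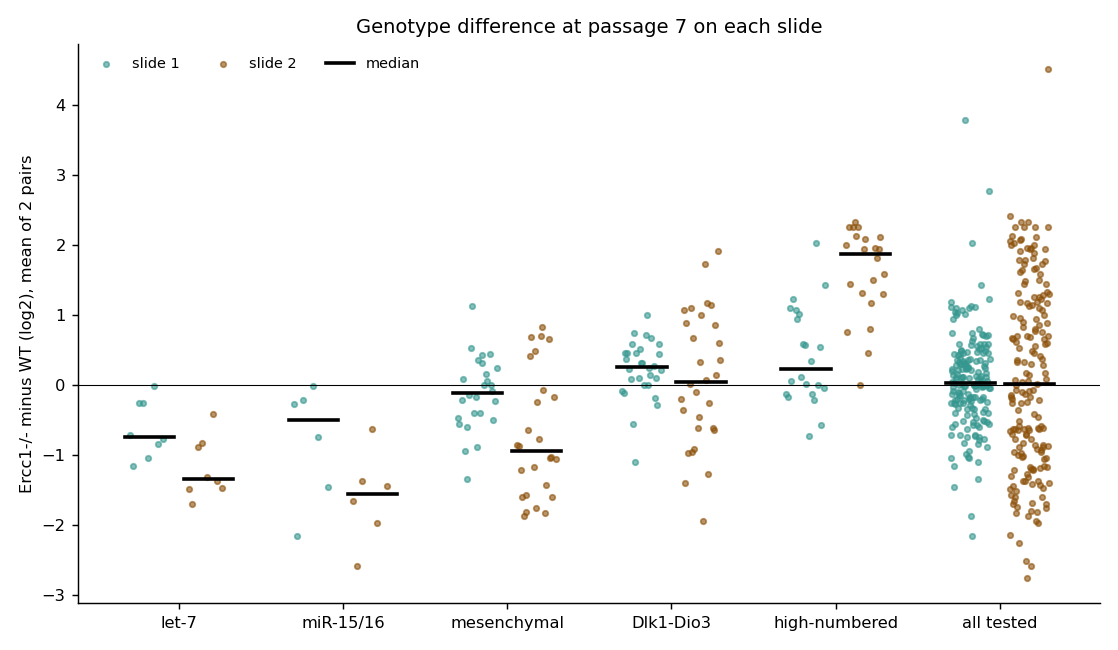
The genotype difference at P7 (Ercc1-/- minus WT, log2, mean of 2 pairs) on slide 1 and slide 2 for each tested member of 5 lists and for all 184 miRNAs, with bars at the medians. The medians of all miRNAs are near 0 on both slides, at 0.03 and 0.02, while let-7 and miR-15/16 lie below 0 and the high-numbered miRNAs above 0 on both, and slide 2 spreads more widely.

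Base composition moved with the differences. Across the 160 miRNAs with a sequence, the share of G and C correlated with the genotype difference with a Pearson correlation of 0.50 and a Spearman correlation of 0.50. The points share the same 8 arrays and are not independent, so no p is given. The Pearson r was 0.33 on slide 1 and 0.52 on slide 2, and 0.47 in 20% O2 and 0.45 in 3% O2. At P3 the same measure was -0.32. The 19 miRNAs higher at an unadjusted p under 0.05 that had a sequence held a median of 59.1% G and C (range 42.9 to 75%), and the 14 lower ones 40.9% (range 30.4 to 50%). Of the 24 miRNAs with at least 60% G and C, 21 were higher in Ercc1-/- MEFs (median 0.88), while of the 54 with 40 to 50%, 36 were lower (median -0.36). Of the 23 with under 40%, 16 were lower. Their median was -0.07, closer to 0 than in the bin above. By slide it was further below 0, at -0.50 on slide 1 and -0.77 on slide 2, against -0.0053 and -0.64 in the bin above. The order of these 2 bins thus depended on whether the slides were averaged. In the sequences printed above, miR-335-5p and let-7f are the poorest in G and C, at 30.4% and 31.8%, whereas miR-129-5p has 57.1% and miR-497 has 50%.

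**Figure D4:**
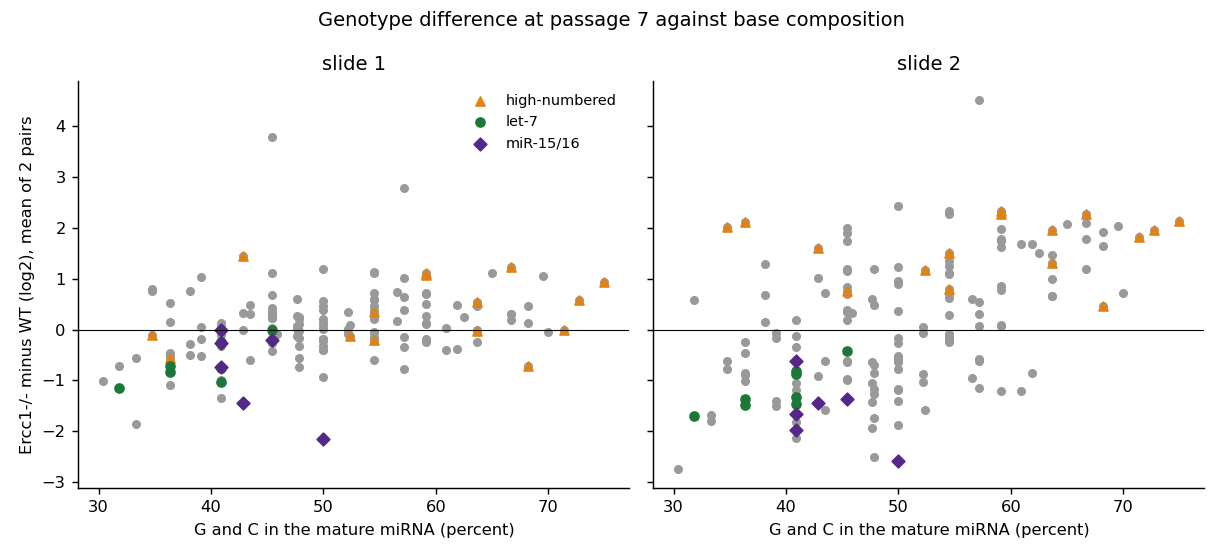
The genotype difference at P7 (Ercc1-/- minus WT, log2, mean of 2 pairs) against the percent of G and C in the mature miRNA, for the 160 miRNAs with a sequence, on slide 1 (left) and slide 2 (right). The points rise to the right on both slides, with Pearson r of 0.33 on slide 1 and 0.52 on slide 2, and miR-497 at 50% lies apart from miRNAs of the same composition on slide 1.

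When the trend with G and C was taken out within each array, a setting chosen after seeing the data, the same 3 miRNAs passed: miR-129-5p with a difference of 3.31, miR-129-3p with 2.98 and miR-497 with -2.36 (adjusted p = 0.0087 for each of the last 2 by limma). The medians of the lists moved toward 0, to -0.44 for let-7, -0.74 for miR-15/16 and 0.48 for the 16 high-numbered miRNAs that had a sequence, 13 of them higher. With array brightness as a covariate instead, the 2 arms of miR-129 passed, with 3.22 for the 5p and 3.71 for the 3p arm (adjusted p = 0.0224 and 0.0269 by limma). In that fit the medians were -0.57 for let-7, -0.42 for miR-15/16 and 0.31 for the high-numbered miRNAs, and the Pearson r with G and C was 0.18.

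The cell type was read from markers. Of the 26 mesenchymal miRNAs on the array, 26 were above background on at least 1 P7 array and 18 on all 8. Their median difference was -0.57, with 7 higher and 19 lower, beside 50.5% and 49.5% over all tested. Of these, 1 and 3 had an unadjusted p under 0.05, beside 12% and 8.7% over all tested, and none passed after adjustment. Without Ercc1-/- in 20% O2 replicate 2 the median was -0.15. MiR-31 had the largest positive difference of the list. It had 8.41, 8.07, 9.44 and 9.39 in Ercc1-/- MEFs, against 7.41, 7.74, 8.18 and 8.33 in WT MEFs, and was higher in 4 of 4 pairs, by 0.92 (SE 0.41, adjusted p = 0.221 by limma). MiR-21, among the brightest miRNAs, differed by -0.66, miR-22 by 0.58 and miR-100 by -0.78, each beyond its SE and short of the threshold.

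Markers of other cells were few. Above background on at least 1 P7 array were 3 of 7 blood, 1 of 7 muscle, 1 of 10 epithelial and 2 of 5 liver and endothelial markers, and none of these was above background on enough arrays to be tested. Since miR-129 is best known from brain, the neural list bears on it. Of its 13 members 5 were above background on any P7 array and only the 2 miR-129 arms were tested. MiR-124, miR-9 and miR-9*, which define neurons and neural progenitors, were at the floor on all 8 arrays, and miR-128, miR-219 and miR-7a were each above background on 1 Ercc1-/- and 1 WT array. The summed scaled signal of the list was 93.7 to 127 on the Ercc1-/- arrays and 36.8 to 45.7 on the WT arrays, a gap that holds the miR-129 arms themselves.

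No member of the lists tied to senescence, damage and growth passed the adjusted threshold, the shared members described above included. The family of miR-34, which p53 induces, and miR-449 had 3 tested members, miR-34a, miR-34b-5p and miR-34c. All were lower in Ercc1-/- MEFs, with a median of -0.75. That median was -0.20 without Ercc1-/- in 20% O2 replicate 2 and 0.19, with 3 of 3 higher, with brightness as a covariate. MiR-34a, the main member of the family, had 9.28, 5.0, 7.75 and 7.26 in Ercc1-/- MEFs, against 9.13, 7.02, 8.53 and 7.62 in WT MEFs. Only the array in 20% O2 on slide 2 stood far below its partner, the difference was -0.75 (SE 0.57, adjusted p = 0.395 by limma), and it was 0.40 with the covariate. Of the listed members of the miR-17-92 cluster and its paralogs, which promote proliferation, 2 tested were higher and 5 lower (median -0.05). MiR-92a differed by 0.46 and miR-19b by 0.48. The list leaves out miR-17*, at 1.03. With it, the 5 tested miRNAs at the chromosome 14 locus of the cluster had a median of 0.46, 3 higher and 2 lower. Of the miR-29 family, which represses collagens, 1 was higher and 2 lower (median -0.29), and miR-29c differed by -0.76. Without Ercc1-/- in 20% O2 replicate 2 the median of this family was 0.17 and miR-29c differed by -0.33, and leaving out each of the other 7 arrays in turn gave medians of -0.59 to -0.07. Of 5 tested miRNAs known to target DNA repair genes 2 were higher and 3 lower (median -0.78), with miR-101a at -1.12. That median was -0.38 without WT in 3% O2 replicate 2 and -0.46 without Ercc1-/- in 20% O2 replicate 2, where it is the value of miR-101a. Of 15 tied to senescence 6 were higher and 9 lower (median -0.05).

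Members of the Dlk1-Dio3 cluster and of the X-linked clusters lay on both sides of 0. The Dlk1-Dio3 cluster, an imprinted region rich in miRNAs, had 30 tested members, 17 higher and 13 lower, with a median of 0.12, and turned to -0.48 with 4 higher without scaling. MiR-134 differed by 1.23 (SE 0.51, adjusted p = 0.194 by limma), miR-381 by 0.91 and miR-433 by 0.85. The X-linked cluster of miR-322 and miR-503, which restrains the cell cycle in muscle, had 4 tested members with a median of -0.03. The list made for the Clcn5 cluster had 4, with 2 higher, 2 lower and a median of -0.01. That median holds miR-652, at -0.74, which lies outside the cluster. MiR-652 is at chrX:142739060-142739080, far from miR-188-5p at chrX:7248031-7248051. Within the cluster, miR-188-5p differed by 1.08 and miR-500 by 0.49, and miR-532-5p was lower. The difference of miR-188-5p was 0.20 in 3% O2 alone and 0.34 without Ercc1-/- in 20% O2 replicate 2, an array without which miR-134 differed by 0.68. The list made for the large Sfmbt2 intron cluster had 2 tested members, miR-669c and miR-467f, with a median of 0.57. MiR-467f maps to chromosome 11, outside that cluster, so this median does not describe the cluster. MiR-669c differed by 0.76, and by -0.0880 without scaling. No miRNA of the Hox clusters was tested, with 5 of 9 above background on any P7 array.

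Neighbours on the genome did not always differ together. Both arms of miR-129 were high, and let-7d, let-7f and let-7a, which lie within 2183 bases of chromosome 13, differed by -1.11, -1.42 and -1.09. On chromosome 17, where miR-99b, let-7e and miR-125a lie within 683 bases, let-7e differed by -1.18, while miR-99b differed by 0.56 and miR-125a-3p by 1.24. MiR-214 differed by -0.71 and miR-199a-5p by -0.55 beside the -1.57 of miR-199a-3p. These are descriptions of single values, with SEs of 0.43 to 0.51 outside miR-129.

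A set of 7 miRNAs that the study lists between the genotypes at P7, and miR-129-5p, were followed whatever their values here. The study lists miR-467a in 20% O2 only and the others of the 7 in 3% O2 only. Its result for miR-129-5p sets P7 Ercc1-/- MEFs in 20% O2 against P3 WT MEFs in 3% O2. For each of these it also reports qRT-PCR in the same direction. The tests here pool both oxygen levels at P7, so they are not the same comparisons. MiR-497 and miR-129-5p are described above. MiR-301a, of the miR-130 family, had 6.63, 3.21, 4.70 and 5.54 in Ercc1-/- MEFs, against 6.39, 5.66, 5.97 and 5.91 in WT MEFs. It was lower in 3 of 4 pairs, by the most in 20% O2 on slide 2, and by a mean of 0.96 (SE 0.59, adjusted p = 0.327 by limma), and was 0.25 higher with brightness as a covariate. In 3% O2 its difference was -0.82. MiR-467a had 3.69, 4.62, 2.51 and 3.88 in Ercc1-/- MEFs, against 2.35, 2.55, 1.60 and 2.22 in WT MEFs. It was above background on 1 array of each genotype, too few for the test. MiR-455* was above background on 0 Ercc1-/- and 3 WT arrays, at least 1.09-fold lower in Ercc1-/- MEFs. MiR-872 was above background on 1 Ercc1-/- and 2 WT arrays, miR-543 on 1 of each, and miR-326 on none.

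No miRNA was called for a genotype difference that depended on oxygen. In the test of whether the difference in 20% O2 differed from that in 3% O2, limma called 0 of 184 miRNAs (0%), and 2 had an unadjusted p under 0.05 (1.09%). These were miR-322 and miR-351, neighbours on chromosome X. MiR-322 had 7.38 and 4.46 in Ercc1-/- MEFs in 20% O2, against 6.79 and 3.21 in WT MEFs, and 5.47 and 3.19 in Ercc1-/- MEFs in 3% O2, against 6.07 and 5.70 in WT MEFs. The genotype difference was 0.92 in 20% O2 and -1.55 in 3% O2, which differ by 2.47 (SE 1.13, adjusted p = 0.997 by limma). For miR-351 the differences were 2.01 and -0.26, which differ by 2.27 (SE 1.06, adjusted p = 0.997 by limma). With SEs near 1, an oxygen dependence of a few fold was not detectable with these arrays.

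The comparison with P3 asks whether a P7 difference was already present in early culture. The genotype difference at P7 differed from that at P3 for 3 of 247 miRNAs (1.21%), 1 more positive at P7 (0.405%) and 2 more negative (0.81%). This fit shares 1 residual spread per miRNA between the passages, although arrays spread more at P7. The SD of the Ercc1-/- arrays was 1.56 at P7 and 0.44 at P3 for miR-497, and 2.99 and 0.80 for miR-335-5p. The SEs below mix these unlike spreads, and the p-values should be read with that limit. For miR-129-5p the difference was 3.65 at P7 and 0.54 at P3, where the Ercc1-/- arrays lay between 1.50 and 2.39 and the WT arrays at the floor, and the change in the difference was 3.11 (SE 0.53, adjusted p = 0.0105 by limma). For miR-497 the difference was -2.36 at P7 and 0.61 at P3, and the 2 differ by -2.97 (SE 0.53, adjusted p = 0.0105 by limma). At P3 the means were 6.50 in Ercc1-/- and 5.90 in WT MEFs, higher in Ercc1-/- in 4 of 4 pairs. For miR-335-5p the difference was -1.88 at P7 and 1.86 at P3, and the 2 differ by -3.74 (SE 0.67, adjusted p = 0.0105 by limma), so it was higher in Ercc1-/- MEFs at P3 and on the lower side at P7.

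Further miRNAs are set beside these. MiR-195 followed miR-497, with -1.44 at P7 and 0.95 at P3, which differ by -2.39 (SE 0.54, adjusted p = 0.054 by limma). MiR-129-3p was higher in Ercc1-/- MEFs at both passages, by 2.76 at P7 and 1.16 at P3, where the means were 4.60 in Ercc1-/- and 3.44 in WT MEFs, and the change of 1.60 (SE 0.77, adjusted p = 0.216 by limma) missed the threshold. MiR-31 differed by 0.92 at P7 and 1.12 at P3. Of the 247 miRNAs, 54 passed the test between the genotypes at P3 (21.9%), 28 of them higher in Ercc1-/- MEFs (11.3%), and these held miR-129-3p, miR-31, miR-195, miR-322, miR-335-5p and miR-497. Without the slide as a block no change between passages was called, with a smallest adjusted p of 0.0976 by limma and 11 miRNAs at an unadjusted p under 0.05. Leaving out Ercc1-/- in 20% O2 replicate 1 gave 113 calls, WT in 3% O2 replicate 1 gave 74, Ercc1-/- in 20% O2 replicate 2 gave 10 and WT in 20% O2 replicate 1 gave 5, the 3 named among them each time.

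**Figure D5:**
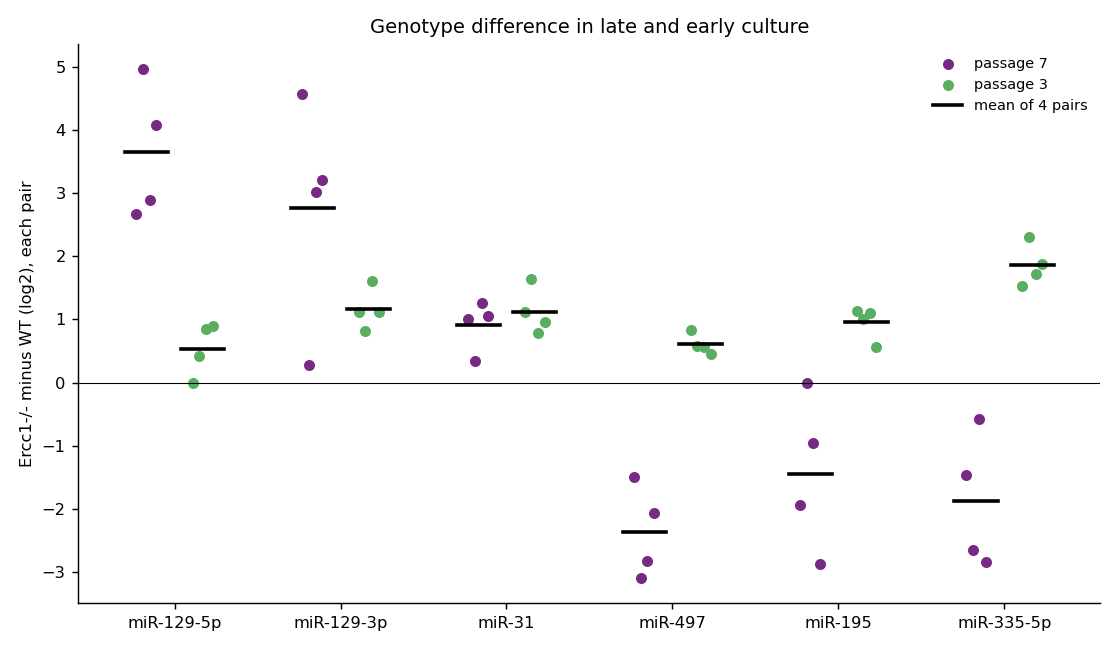
The genotype difference (Ercc1-/- minus WT, log2) in each of 4 pairs at P7 (purple) and P3 (green) for 6 miRNAs, with bars at the means. The 4 pairs of miR-497 and of miR-335-5p lie below 0 at P7 and above 0 at P3, miR-129-5p averages 3.65 at P7 and 0.54 at P3, and miR-31 lies above 0 at both.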

How the data were processed

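The scanner files give, per the file headers, spot intensities from Agilent Feature Extraction 10.7.1.1, for which the deposited processed signal is an intensity after background subtraction by the software, linear and unscaled between arrays. For their own tests the authors normalized log2 values to the mean of each array. The deposited array row and column, outlier and above-background marks are other values used for filters, and the series table holds a summed intensity per miRNA made by the authors.

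Each array has 13715 spots for 611 mouse and 39 viral miRNAs. Control and outlier spots were left out, spots were averaged per probe and probes per miRNA, and a miRNA was above background when at least 0.5 of the spots of any of its probes were so marked. Arrays were scaled to the mean log2 signal of 57 miRNAs. Lower values were set to a scaled signal of 2.82, taken as the median of the lowest above-background signals of the arrays (1.02 to 18.0). Testing used limma 3.58.1 in R 4.3.3 with oxygen and replicate number as fixed terms (4 residual and 9.81 prior degrees of freedom), for the passage comparison over all 16 arrays with the slide fitted within each passage. The scripts were tested on simulated data. An adjusted p under 0.05 was called. Alternatives changed the blocks, scale, background, floor, filter or arrays one at a time, except the methods' t-test and normexp. The t-test differs in scale, blocks and test together. Normexp used the median spot signal and added an offset of 50 to every spot before log2. For a bound, arrays of the dimmer genotype were set at the higher of their own value and their lowest signal above background.

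The replicate number pairs the arrays through the shared slide: differences between slides correlated between groups at P7 with Pearson r of 0.81 to 0.91 (median 0.84, 184 miRNAs). Each slide holds a single replicate number, so slide, replicate culture and any cell line tied to it cannot be told apart, here or in the values given by slide. The number of arrays limits the precision. The comparison, the 22 lists and the rule for names were chosen with earlier results of these data known. The rule named the called miRNAs, the 16 with the smallest p, 8 that the study or earlier work on the arrays had named, up to 3 members per list with the smallest p, the oxygen and passage calls or the 3 with the smallest p, and the 5 brightest. Members given outside it, such as miR-17*, miR-103, miR-107, miR-148a and neighbours of named miRNAs, were chosen after their values were seen. Older miRNA names were paired by hand with RefSeq arms.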

Additional observations from a re-analysis of the deposited data

Results flagged for a closer look

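Among the 120 groups of 4 arrays looked at, 6 had a highest or lowest array far from the other 3, where chance gives about 1 in 20. MiR-129-3p was 2.37 on the WT array in 3% O2 replicate 1 and 1.50 to 1.53 on the other WT arrays. MiR-652 was 3.14 on the Ercc1-/- array in 20% O2 replicate 2 and 5.53 to 6.02 on the other Ercc1-/- arrays. MiR-543 was 3.43 and miR-872 was 3.67 on the Ercc1-/- array in 20% O2 replicate 1, with the other 3 at the floor, and miR-326 was 1.81 on the WT array in 3% O2 replicate 1, with the other 3 at the floor. With the other 3 at the floor, any value above it is flagged however small the gap, so the rate of 1 in 20 does not apply to miR-543, miR-872 and miR-326. The Ercc1-/- array in 3% O2 replicate 1 had 707 spots marked as outliers, against 320 to 341 on the other Ercc1-/- arrays at P7.

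The genotype difference changed between P7 and P3 for 3 miRNAs by the limma contrast of the 2 passages, by 3.11 for miR-129-5p, -3.74 for miR-335-5p and -2.97 for miR-497.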

How the results depend on the processing

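The number of calls at P7, 3 in the fit described, stayed within 1.5 times of that in 11 of 36 alternatives. With the slide as a block removed (no pairing), limma called 0, with 4 at an unadjusted p under 0.05. It called 0 also without scaling (28 unadjusted), with normexp on the median signal (35), from the total signals (18), with a floor 4 times as high (27), without the filter on dim miRNAs (36) and on the 85 miRNAs above background throughout P7 (27). One was called in 20% O2 alone, after scaling to the mean of all miRNAs, with a floor 0.1 times as high, with the detection call of the software and by the methods' t-test after Benjamini-Hochberg adjustment (5 unadjusted). There were 5 on slide 1 alone, 7 (4 higher) with the 75th percentile of the 57 miRNAs as the scale, 17 (10 higher) with all 16 arrays in 1 fit, 18 (12 higher) with the presumed cell line as a random block (correlation -0.17), 18 with array weights, 21 with oxygen levels averaged, 23 in 3% O2 alone and 45 on slide 2 alone. Leaving out 1 array gave 1 to 46 calls, with 46 without Ercc1-/- in 20% O2 replicate 1, 15 without Ercc1-/- in 3% O2 replicate 2, and 1 without WT in 20% O2 replicate 1, Ercc1-/- in 3% O2 replicate 1 or WT in 3% O2 replicate 2. The same 3 miRNAs were among the calls in each setting of 5 or more. Oxygen gave 0 calls in 26 of 26 alternatives. The passage contrast, with 3 calls, gave 0 without the slide block or with total signals, 1 with either floor, 5 with the mean over all miRNAs, 9 with array weights, 14 with the 75th percentile of all miRNAs, and 3 to 113 without 1 array. The cause of these changes was not tested.

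Of 1734 values of single miRNAs under the alternatives, 37 changed sign. Genotype differences at P7 were counted only for named miRNAs whose difference was at least its SE. Some settings, such as the removal of the slide block, cannot change the value, so the share of sign changes is low by design. With the mean over all miRNAs, and equally in the methods' t-test, miR-494 was -0.0387, miR-22 -0.0545, miR-500 -0.14, miR-19b -0.15 and miR-92a -0.17. Without scaling, miR-669c was -0.0880, miR-494 -0.25, miR-22 -0.26, miR-500 -0.35, miR-19b -0.36 and miR-92a -0.38. The median of all miRNAs, 0.03, was -0.56 without scaling, -0.48 with that mean, -0.33 with the 75th percentile, -0.24 with the 85 miRNAs above background at P7, -0.17 with quantile normalization and 0.37 with normexp. With total signals, miR-669c was -0.00889, miR-134 -0.0264, miR-129-3p -0.12, let-7d 0.26 and miR-26b 0.50. With normexp, miR-652 was 0.0903, miR-301a 0.11, miR-195 0.18, miR-34c 0.25 and the oxygen value of miR-351 -0.12. With brightness as a covariate, miR-494 was -0.0671, miR-21 0.0625, miR-34c 0.10, miR-34b-5p 0.19, miR-301a 0.25 and miR-34a 0.40. In 3% O2 alone miR-351 was -0.26 and miR-494 -0.42, with quantile normalization miR-494 was -0.0948, on slide 1 miR-34c was 0.14, and on slide 2 miR-19b was -0.0711. The planned normexp on the mean signal was not run, since the columns used hold the median signal. That setting, base composition and brightness were added after seeing the data.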

Other observations

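Viral miRNAs are a second set of probes on the arrays. Of 39, 6, 6, 3 and 6 were above background on the Ercc1-/- arrays at P7, against 5, 4, 3 and 4 on the WT arrays, 7 different ones in all.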
